A study of Mus musculus with 32 samples.

Results

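Gm26825, Gsta4, Usp50, Fam107b and Prrg2 are 5 mouse genes that lie outside chromosomes 8 and 15, the chromosomes of the knocked-out cadherin genes, and that stood out as high or low in mutant libraries against WT in at least 1 brain region, although Prrg2 passed the test against WT in none. They were chosen by those levels, found by their Ensembl identifiers among the 48576 identifiers of the expression files, and all 5 were among the 13441 genes whose mean over the 32 libraries reached 1 FPKM (fragments mapped to a gene, scaled to its length and to the depth of the library). The question asked of them was whether their levels agreed between the forebrain (Fb) and midbrain (Mb) libraries that carry the same number, as a shared allele in 1 embryo would give. Gm26825 had the highest such agreement of the 5, and the correlations of the other 4 lay between -0.14 and 0.285.

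RNA of the forebrain and the midbrain of E9.5 embryos was sequenced, with 6 WT, 4 TKO_Ex, 3 DKO_Ex and 3 DKO_CD libraries from each tissue. TKO_Ex embryos lacked Cdh6, Cdh8 and Cdh11, 3 type II cadherins, and had exencephaly, an open cranial neural tube. By the labels DKO_Ex embryos lacked Cdh8 and Cdh11 and had exencephaly, and DKO_CD embryos lacked Cdh6 and Cdh8 and had a cranial defect, whereas the paper describes the DKO_CD embryos as lacking Cdh8 and Cdh11. In 12 files the column heading names the other DKO group than the record, and libraries were grouped by heading. All embryos were of the B6C3F1 background. The mutant embryos came from crosses among carriers descended from 1 gene-edited founder and the WT embryos from WT matings, so genotype at the cadherin genes and descent from the founder cannot be told apart in any comparison with WT.

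An embryo carries the same alleles in its forebrain and its midbrain. A gene whose level depends on an inherited variant can therefore be high or low in both regions of an embryo, whereas a gene whose level depends on the region need not be. The sex, litter, stage and day of an embryo are also shared by its regions, so agreement alone does not single out an allele. Gsta4 encodes a glutathione S-transferase that removes 4-hydroxynonenal, a product of lipid peroxidation. Usp50 is named as a member of the ubiquitin-specific proteases, Fam107b encodes a small actin-associated protein, and Prrg2 encodes a transmembrane protein with a Gla domain, which is carboxylated by a vitamin K-dependent enzyme. Gm26825 is annotated as a long intergenic non-coding RNA of unknown function.

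Positions are given on GRCm38, from GENCODE M21. Gm26825 (ENSMUSG00000097554) lies at chr5:5781530-5783636 on the plus strand, has 1 transcript of 2 exons and 2026 exonic bases, and overlaps Gm15459, a processed pseudogene on the opposite strand. Gsta4 (ENSMUSG00000032348) lies at chr9:78182774-78209349 on the plus strand and overlaps no other gene. Usp50 (ENSMUSG00000027364) lies at chr2:126709096-126783470 on the minus strand, where it overlaps Usp8 on the opposite strand and the pseudogene Gm10774 on its own strand. Fam107b (ENSMUSG00000026655) lies at chr2:3570488-3782142 on the plus strand, and Prrg2 (ENSMUSG00000007837) at chr7:45053584-45062677 on the minus strand, overlapping Nosip on the opposite strand.

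Of the 5 genes, Gm26825 and Usp50 shared stretches of 382 bases or more with the transcript of a protein-coding gene elsewhere in the genome, and these sequences are shown because fragments from such stretches are hard to assign to 1 gene. Bases 1 to 1940 of the Gm26825 transcript matched Hspa8, which encodes a constitutive chaperone of the heat shock protein family and lies at chr9:40800984-40810087, in the opposite orientation with 99.588% identity. That stretch held 5 mismatches and 1 gap. The 150 bases of Gm26825 exon 1 at chr5:5783000-5783149 hold 2 of the mismatches, and the Hspa8 transcript from the same stretch, from exons 3 and 4 between positions 40802619 and 40802883 of chromosome 9, is given as its reverse complement, with the differing bases in capitals.
Gm26825: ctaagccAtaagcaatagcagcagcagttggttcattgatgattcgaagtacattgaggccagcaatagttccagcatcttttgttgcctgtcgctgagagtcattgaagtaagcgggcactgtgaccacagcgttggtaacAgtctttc
Hspa8: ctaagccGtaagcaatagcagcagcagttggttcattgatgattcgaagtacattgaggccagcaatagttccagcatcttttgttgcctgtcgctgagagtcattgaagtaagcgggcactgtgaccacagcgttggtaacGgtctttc
Transcript Usp50-203 matched the full first 382 bases of Polr2l, which encodes a small subunit shared by the nuclear RNA polymerases, in the same orientation with 1 mismatch. The 30 bases around that mismatch, in the last exon of Usp50-203 at chr2:126709462-126709491 on the minus strand and in the coding sequence of Polr2l, are shown with the differing base in capitals.
Usp50: ggtctgctgcaggccAagtacacggagggg
Polr2l: ggtctgctgcaggccGagtacacggagggg
By BLAST+ no transcript of Gsta4 or Fam107b matched another gene over at least 100 bases, and Prrg2 matched only Nosip, over 103 bases of their overlap. The processed pseudogene Gm15459 matched Gm26825 over 1855 bases without a mismatch, and in all 16 other genes matched it.

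The depth, estimated from the step between low FPKM values, was 1.96 to 3.24 M fragments a library. The sex-linked genes Xist, Ddx3y, Eif2s3y, Kdm5d and Uty gave the same sex for the Fb and the Mb library in 16 of 16 same-numbered pairs, 7 male and 9 female, although the labels do not state that a number marks 1 embryo. WT replicates 1 to 3 were male and 4 to 6 female. Cdh6 was at 3.74 FPKM in the Fb and 3.10 in the Mb library labelled TKO_Ex replicate 3, against 0.345 to 1.84 in the other 6 TKO_Ex libraries and a WT mean of 3.06 ± 0.782 FPKM in Fb and 2.47 ± 0.955 in Mb (SD, n = 6). The library pair labelled TKO_Ex replicate 3 therefore stood apart in Cdh6, but not in the other targeted genes, with Cdh8 at 1.33 and 1.59 FPKM and Cdh11 at 21.1 and 16.2 FPKM in Fb and Mb, each within the range of the other TKO_Ex libraries. In WT, Cdh8 was at 0.840 to 1.96 FPKM in Fb and 1.14 to 10.1 in Mb, and Cdh11 at 19.5 to 25.3 and 17.9 to 28.7. Except for Cdh11 in Mb the pair thus also lay within the WT range, so these levels cannot show whether its Cdh8 was mutated. Results in TKO_Ex are given with and without the pair. In the libraries labelled DKO_CD, Cdh6 was at 1.72 to 3.43 FPKM in Fb and 1.29 to 2.11 in Mb, overlapping WT in both tissues, so that the loss of Cdh6 named in the label was not seen in its level. The summed level of the 5 forebrain markers was at least 92.7 FPKM in every Fb library and at most 10.8 in every Mb library, and that of the 5 midbrain markers at least 30.1 FPKM in every Mb library and at most 9.49 in every Fb library.

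Gm26825 was expressed in every WT library and nearly absent from all mutant libraries except the pair labelled TKO_Ex replicate 3. In WT Fb its levels were 22.1, 21.2 and 18.3 FPKM in replicates 1 to 3 and 8.88, 12.4 and 11.5 in replicates 4 to 6. In WT Mb they were 17.1, 19.3 and 15.4 FPKM in replicates 1 to 3 and 9.38, 7.92 and 11.9 in replicates 4 to 6. In both tissues the male WT replicates lay above the female ones with no overlap, at 15.4 to 22.1 against 7.92 to 12.4 FPKM, and since sex and number go together in WT, an effect of sex and a difference between 2 sets of WT embryos cannot be told apart. Among the mutants, males reached at most 0.464 FPKM, and females 0.412 FPKM apart from the pair labelled TKO_Ex replicate 3, which was female.

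In TKO_Ex the Gm26825 levels of replicates 1 to 4 were 0, 0.412, 8.24 and 0 FPKM in Fb and 0.262, 0.238, 8.36 and 0.464 in Mb. In DKO_Ex they were 0.196, 0.209 and 0 FPKM in Fb, and each of the 3 Mb libraries was listed at 0. In DKO_CD they were 0.210, 0.387 and 0 FPKM in Fb and 0.197, 0.219 and 0 in Mb. The 18 mutant libraries other than those labelled TKO_Ex replicate 3 thus lay at 0 to 0.464 FPKM, below the lowest WT library. The exceptional pair lay near the female WT libraries. Its Fb library was just below the lowest WT Fb library (8.88 FPKM), and its Mb library was within the female WT range (7.92 to 11.9 FPKM). In estimated fragments this was a median of 74 (42 to 135) in WT and 1 (0 to 34) in the mutants, so single mutant values cannot be ordered.

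**Figure D1:**
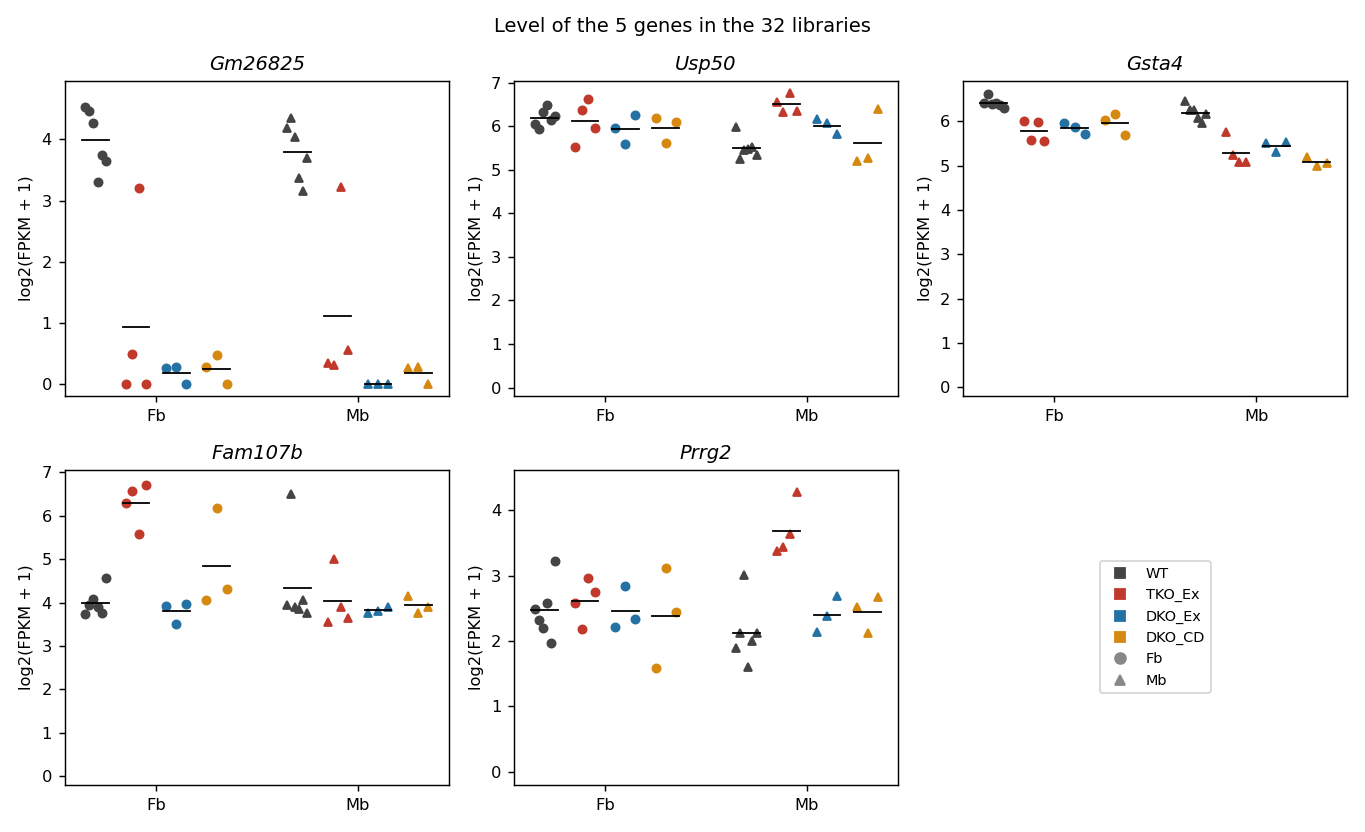
Level of each gene as log2(FPKM + 1) in the 32 libraries, with Fb as circles and Mb as triangles, 1 point a library, coloured by group, and a bar at the group mean. Gm26825 is near 0 in 18 of 20 mutant libraries, Gsta4 is lower in every mutant library than in any WT library of its tissue, and Fam107b and Prrg2 depart from WT mainly in TKO_Ex Fb and TKO_Ex Mb.

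Fitted with limma on log2(FPKM + 1), Gm26825 differed from WT by -3.82 ± 0.274 in DKO_Ex Fb, -3.75 ± 0.28 in DKO_CD Fb, -3.80 ± 0.26 in DKO_Ex Mb and -3.62 ± 0.265 in DKO_CD Mb (log2, SE), with Benjamini-Hochberg adjusted p-values of 0.000416 to 0.000929. As mutant libraries were at or near 0, the size of these differences depends on the pseudocount. In TKO_Ex the difference was -3.07 ± 0.569 in Fb (adjusted p = 0.131) and -2.69 ± 0.525 in Mb (adjusted p = 0.120, limma). Without replicate 3 it was -3.83 in Fb (adjusted p = 0.000678) and -3.40 in Mb (adjusted p = 0.00082, limma). These contrasts chose the genes, so the values describe the choice and support nothing.

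The Fb and Mb levels of Gm26825 followed each other from pair to pair. After the group mean of log2(FPKM + 1) was removed in each tissue, the deviations of the 16 same-numbered pairs had a Pearson's r of 0.958, the same sign in 13 of 16 pairs, and an exact two-sided permutation p of 0.00492 over all 622080 re-pairings of numbers within groups. The DKO_Ex pairs had no sign in Mb, where each library was at 0, and the DKO_CD signs rest on values that cannot be ordered. In TKO_Ex the signs follow from replicate 3, which lay far above the others. Each WT pair had the same sign in both tissues. Adjusted over the 13329 genes tested the p was 0.268, so the agreement did not pass the threshold. Spearman's rho was 0.924 (exact permutation p = 0.00332, adjusted p = 0.265), and r was 0.763 without the 2 pairs farthest from the median Fb deviation (exact permutation p = 0.0436).

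**Figure D2:**
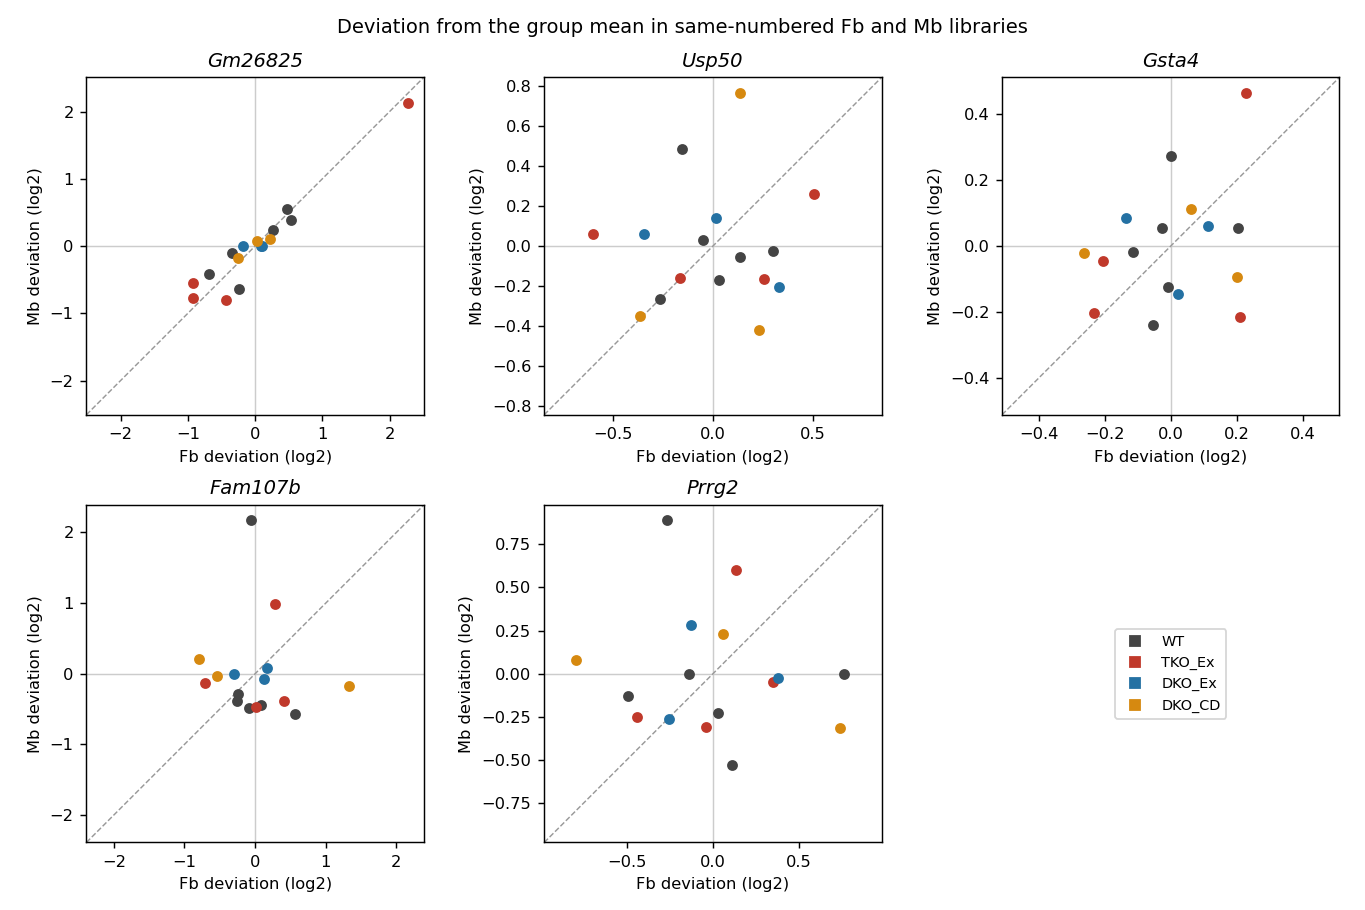
Deviation from the group mean of log2(FPKM + 1) in Fb (horizontal) and in the same-numbered Mb library (vertical) for each gene, 1 point a pair, coloured by group, with the line of equal deviations dashed. Only for Gm26825 do the 16 points run along the line (r = 0.958), and its farthest point is the pair labelled TKO_Ex replicate 3.

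The pair labelled TKO_Ex replicate 3 carried much of the Gm26825 value. Without it r was 0.762 over 15 pairs (exact permutation p = 0.0383), in the 6 WT pairs alone 0.867 (exact permutation p = 0.0458) and in the 10 mutant pairs alone 0.974 (exact permutation p = 0.0972). The value of the mutant pairs rests on TKO_Ex replicate 3, as the other mutant libraries were at 0 to 0.464 FPKM. In the mutant pairs alone Gm26825 averaged under 1 FPKM, below the filter used for testing. When numbers were re-paired only within group and sex, an alternative chosen after the data were seen, the r of 0.959 had an exact permutation p of 0.167, so agreement beyond the sex of the pair did not pass the threshold.

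Across all genes tested, 12 (0.09%) passed the adjusted threshold for agreement and 1121 (8.41%) had an unadjusted p under 0.05. None of the 12 was among the 5 genes. An r as high as that of Gm26825 was found in 16 genes (0.12%). For comparison, r was 0.994 for Xist and 0.975 to 0.996 for the 4 Y-linked genes, with adjusted p-values of 0.157 to 0.168 in the same exact permutation test.

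The other 4 genes lay within the bulk of all genes. The r of same-numbered Fb and Mb deviations was 0.285 for Gsta4, with the same sign in 10 of 16 pairs (exact permutation p = 0.534). It was 0.07 for Usp50 with the same sign in 6 pairs, -0.08 for Fam107b with 8 and -0.14 for Prrg2 with 7, and the exact permutation p-values were 0.612 to 0.83. These p-values do not show that the levels are independent of the embryo.

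**Figure D3:**
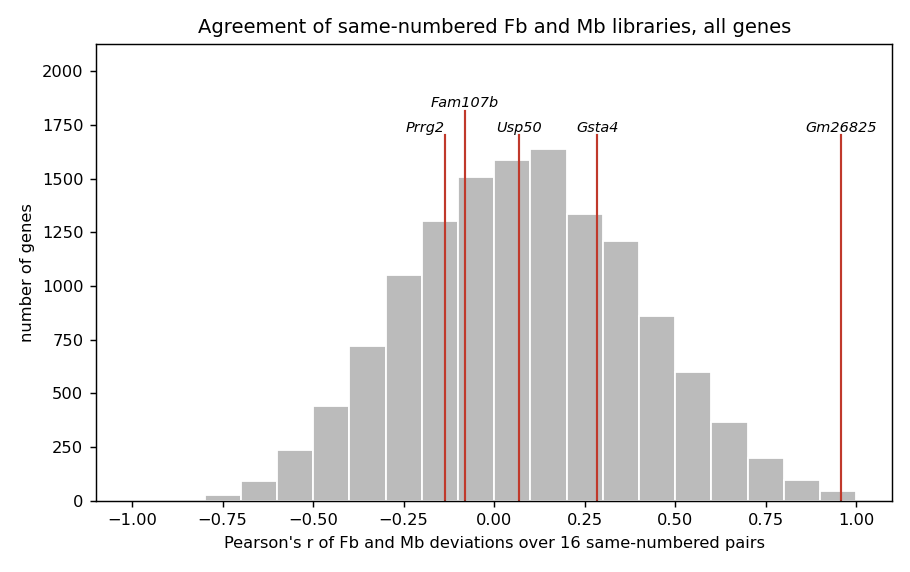
Number of genes (vertical) by Pearson's r of Fb and Mb deviations over the 16 same-numbered pairs (horizontal, bins of 0.1), with the 5 genes as red lines. Gm26825 (0.958) lies at the upper edge among 44 genes at 0.9 or more, and the other 4 genes lie between -0.14 and 0.285, within the bulk.

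The gene whose level ran most opposite to Gm26825 was Hspa8, the gene that shares its sequence (r = -0.919 over 32 libraries, the lowest among 13440 genes, given as a description). Hspa8, described here because of that sequence and after its values were seen, was at 121 to 145 FPKM in WT replicates 1 to 3 and at 245 to 309 FPKM in WT replicates 4 to 6, over both tissues. It was at 284 FPKM in Fb and 312 in Mb in the pair labelled TKO_Ex replicate 3, and at 341 to 564 FPKM in the other 18 mutant libraries. The libraries thus formed 3 bands without overlap in Hspa8, and each band had its own range of Gm26825, the pair labelled TKO_Ex replicate 3 falling with or just beside WT replicates 4 to 6.

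**Figure D4:**
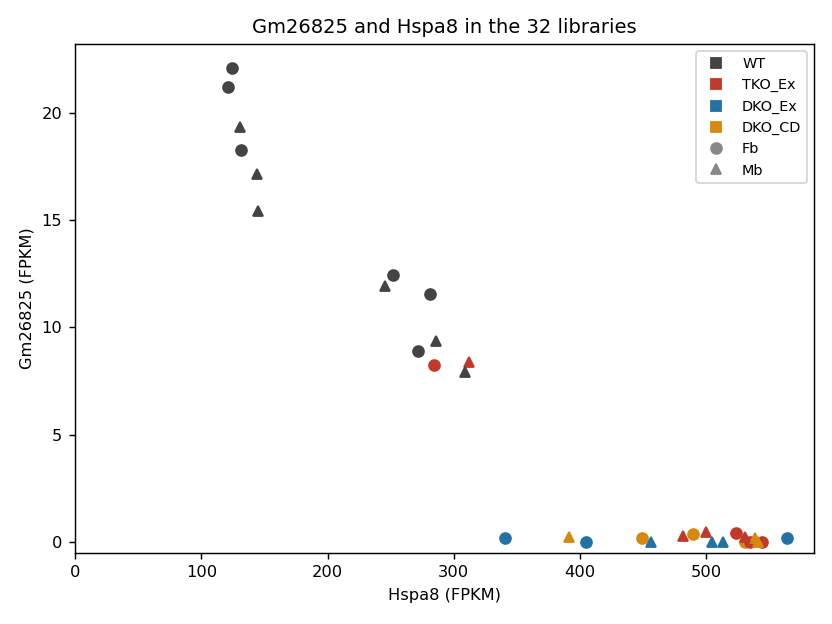
Gm26825 against Hspa8, both in FPKM, in the 32 libraries, with Fb as circles and Mb as triangles, coloured by group. WT replicates 1 to 3 (Hspa8 at 121 to 145 FPKM) lie top left, WT replicates 4 to 6 and the pair labelled TKO_Ex replicate 3 (245 to 312) in the middle, and the other 18 mutant libraries (341 to 564) lie along the bottom.

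Hspa8 agreed between same-numbered libraries too, with an r of 0.890 (exact permutation p = 0.00466, adjusted p = 0.267). Gm15459, the pseudogene on the opposite strand of Gm26825, was at 641 to 937 FPKM in WT and 637 to 876 in the mutants, and its r was 0.701 (exact permutation p = 0.00506, adjusted p = 0.272). With all libraries its WT and mutant levels overlapped in both tissues, and without the pair labelled TKO_Ex replicate 3 they overlapped in Mb, while in Fb the highest mutant was at 754 and the lowest WT at 755 FPKM. The libraries were directional and the matches to Gm26825 lie on the opposite strand, but the part of fragments shared between Gm26825, Gm15459 and Hspa8 in these levels was not tested.

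The genes with levels most like Gm26825 over the 32 libraries were Rps25 (r = 0.876), which encodes a protein of the small ribosomal subunit, Ciapin1 (0.818), which encodes an iron-sulfur cluster assembly factor, and the pseudogene Gm2225 (0.779). Rps25, on chromosome 9 like Hspa8, lay at 291 to 537 FPKM in WT and 113 to 279 FPKM in the mutants other than the pair labelled TKO_Ex replicate 3, which had 380 in Fb and 373 in Mb. Its Fb and Mb deviations had an r of 0.513 (exact permutation p = 0.105). Ciapin1 and Gm2225 lie on chromosome 8, where the knocked-out Cdh8 and Cdh11 lie.

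Gsta4 was lower in every mutant library than in any WT library of the same tissue, and it was the only one of the 5 genes for which this held in both tissues with all libraries kept. In WT Fb its levels were 85.1, 98.1, 83.5, 84.7, 81.9 and 78.5 FPKM in replicates 1 to 6. In Fb of the mutants they were 63.5, 46.8, 62.7 and 45.9 FPKM in TKO_Ex, 61.3, 57.4 and 51.4 in DKO_Ex and 64.2, 70.8 and 51.1 in DKO_CD. The highest mutant, DKO_CD replicate 2, thus stayed below the lowest WT, replicate 6, and the library pair labelled TKO_Ex replicate 3 lay among the other mutants.

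In WT Mb the Gsta4 levels were 87.7, 75.2, 75.2, 66.4, 61.1 and 71.4 FPKM. In Mb of the mutants they were 53.1, 37.0, 32.8 and 33.0 FPKM in TKO_Ex, 44.5, 38.5 and 45.2 in DKO_Ex and 35.6, 30.7 and 32.4 in DKO_CD. The mutant means were 64.2% (TKO_Ex), 66.5% (DKO_Ex) and 72.7% (DKO_CD) of the WT mean in Fb, and 53.5%, 58.6% and 45.2% in Mb. Unlike Gm26825, Gsta4 thus stayed well above 0 in every library.

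Of 13441 genes, 2 (0.0149%) were lower in all mutant than in all WT libraries in both tissues, Gsta4 and the pseudogene Gm15710, and 7 (0.0521%) were higher, among them Hspa8. Without the pair labelled TKO_Ex replicate 3 the lower genes were 4, with Gm26825 and Rps25 added. Gm15710 was also the gene most like Gsta4 over the libraries (r = 0.765), followed by Rex1bd (0.741) and Ciapin1 (0.734). Gm15710 matched Rpl13 of chromosome 8 and the pseudogene Gm12918 of chromosome 4 alike, each over 636 bases with 99.843% identity. It also matched pseudogenes on several other chromosomes, so the match does not single out chromosome 8. Rpl13 itself had no level in these data. Both Rex1bd and Ciapin1 lie on chromosome 8. Gsta4 and Gm26825 were the pair of members most alike (r = 0.705), with both low in the mutants.

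The fitted difference of Gsta4 from WT was -1.12 ± 0.116 in DKO_CD Mb (log2, SE, adjusted p = 0.0067, limma), -0.91 ± 0.144 in TKO_Ex Mb (adjusted p = 0.0544) and -0.75 ± 0.118 in DKO_Ex Mb (adjusted p = 0.0693). In Fb the differences were -0.64 in TKO_Ex (adjusted p = 0.104), -0.58 in DKO_Ex (adjusted p = 0.0661) and -0.46 in DKO_CD (adjusted p = 0.318, limma). The change of the DKO_CD difference between tissues, -0.65 ± 0.159, did not pass the threshold (adjusted p = 0.881, limma interaction). The DKO_CD Mb call was lost without DKO_CD replicate 2 or 3 (adjusted p = 0.0514 to 0.0584, limma). Without TKO_Ex replicate 3 the TKO_Ex differences were -0.71 in Fb (adjusted p = 0.0906) and -0.83 in Mb (adjusted p = 0.181, limma). By genotype of record, with the DKO groups exchanged, the passing Gsta4 difference is that of DKO_Ex.

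Usp50 stood above WT in the TKO_Ex Mb and not in the Fb. In WT Mb its levels were 62.4, 36.8, 42.6, 43.6, 45.3 and 39.3 FPKM, and in TKO_Ex Mb 93.7, 79.9, 108 and 80.4. In DKO_Ex Mb they were 70.4, 66.7 and 55.3 FPKM, and in DKO_CD Mb 35.8, 37.7 and 82.7. All 4 TKO_Ex libraries lay above every WT library, which held for 1.21% of genes, as did 2 of 3 DKO_Ex libraries and 1 of 3 DKO_CD libraries. The Fb levels were 60.1 to 89.5 FPKM in WT and 45.2 to 97.9 in the mutants, and overlapped in every group.

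The difference of Usp50 in TKO_Ex Mb was 1.0 ± 0.145 (log2, SE, adjusted p = 0.0256, limma), and the mean was 2.01 times that of WT. Among the comparisons with WT that was the passing value nearest to the threshold of 0.05. Just outside it were Gsta4 in TKO_Ex Mb (adjusted p = 0.0544), in DKO_Ex Fb (0.0661) and in DKO_Ex Mb (0.0693), and then Prrg2 in TKO_Ex Mb (0.0783, limma). The Usp50 call was lost on leaving out any 1 library other than WT replicate 1, at adjusted p-values of 0.0642 to 0.111, and without TKO_Ex replicate 3 the difference was 0.91 ± 0.152 (adjusted p = 0.0967, limma). Polr2l, which shares 382 bases with Usp50-203, was at 35.2 to 53.4 FPKM in WT Mb and at 52.4, 52.2, 53.4 and 43.2 FPKM in TKO_Ex Mb. Its means were 41.0 ± 6.68 FPKM in WT Mb (SD, n = 6) and 50.3 ± 4.76 in TKO_Ex Mb (SD, n = 4), and 3 of 4 TKO_Ex libraries lay above all WT libraries but replicate 1, which also had the highest Usp50 of WT Mb. The part of Polr2l in the Usp50 level was not tested.

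In WT embryos Usp50 was lower in Mb than in Fb, by -0.69 ± 0.127 (log2, SE, adjusted p = 0.00311, limma, n = 6 a tissue). The contrast shares the WT Mb libraries that entered the choice of Usp50, so this value is a description. Usp50 was the 1 of the 5 genes that passed, where 1102 of 13344 genes tested (8.26%) passed. Its Mb and Fb values in WT overlapped in 1 library, WT Mb replicate 1, at 62.4 FPKM. The other 4 genes did not pass, at -0.20 for Gm26825 (adjusted p = 0.736), -0.23 for Gsta4 (0.14), 0.34 for Fam107b (0.702) and -0.34 for Prrg2 (0.484, limma). The Fam107b value rests on WT Mb replicate 2 at 90.2 FPKM. The other WT Mb libraries were at 12.6 to 15.6 FPKM and WT Fb at 12.3 to 22.7.

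Fam107b was high in all 4 TKO_Ex Fb libraries, and in single libraries of other groups. Its levels were 77.8, 94.1, 46.8 and 103 FPKM in TKO_Ex Fb, against 12.3, 14.3, 15.9, 14.0, 12.5 and 22.7 in WT Fb. They were 14.2, 10.4 and 14.7 FPKM in DKO_Ex Fb and 15.8, 71.8 and 18.8 in DKO_CD Fb. The TKO_Ex range lay above that of WT without overlap, which held for 1.42% of genes, and DKO_CD replicate 2 lay inside the TKO_Ex range.

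In Mb the levels of Fam107b were 14.5, 90.2, 13.9, 13.4, 15.6 and 12.6 FPKM in WT and 10.8, 31.4, 14.0 and 11.6 in TKO_Ex, and 12.5 to 16.7 in the 6 DKO libraries. Over both tissues 25 of 32 libraries lay at 10.4 to 22.7 FPKM, and 7 lay above 30 FPKM. These were 5 TKO_Ex libraries, DKO_CD Fb replicate 2 and WT Mb replicate 2. TKO_Ex replicate 2 was above 30 FPKM in both tissues, and the other 5 numbers with a high library were high in 1 tissue.

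The fitted difference of Fam107b in TKO_Ex Fb was 2.29 ± 0.224 (log2, SE, adjusted p = 0.00763, limma), and the mean was 5.26 times that of WT. Without TKO_Ex replicate 3 it was 2.53 ± 0.182 (adjusted p = 0.000678, limma), and without TKO_Ex replicate 2 the adjusted p was 0.0605. Against DKO_Ex Fb the difference was 2.48 ± 0.269 (adjusted p = 0.047, limma), it shares the TKO_Ex libraries that chose the gene, and of the 7 libraries only TKO_Ex replicate 3 could be left out without loss of the call (adjusted p = 0.121 to 0.267 without any of the others). Summed surface ectoderm markers (Krt8, Krt18 and Epcam) were at 77.2 to 201 FPKM in TKO_Ex Fb, 49.1 to 80.6 in WT Fb, 68.8 to 147 in DKO_Ex Fb and 67.6 to 183 in DKO_CD Fb, with none of the 3 at 0 in all libraries. Head mesenchyme markers were lower, at 74.1 to 114 FPKM in TKO_Ex Fb against 103 to 141 in WT Fb. Neuroepithelium markers were at 254.8 to 282.7 against 202.5 to 262.1 FPKM. Endothelium markers, at 14.0 to 28.9 against 20.9 to 27.0 FPKM, overlapped, as did neural crest markers, at 8.54 to 15.9 against 7.62 to 16.2. The part of any of these cell types in the Fam107b level was not tested. In bulk tissue more cells of a type and more RNA per cell cannot be told apart.

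Prrg2, the gene with the lowest WT level of the 5 in Mb, was high only in the TKO_Ex Mb. Its levels there were 9.38, 9.80, 11.4 and 18.5 FPKM, against 2.72, 3.35, 7.07, 2.03, 3.0 and 3.35 in WT Mb. They were 3.42 to 5.45 FPKM in DKO_Ex Mb and 3.38 to 5.39 in DKO_CD Mb. All 4 TKO_Ex libraries lay above every WT Mb library, which held for 1.21% of genes. They also lay above every DKO Mb library and every Fb library, the Fb libraries running from 2.01 to 8.38 FPKM. The Fb groups overlapped.

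Over the mutant libraries of both tissues and all groups, Prrg2 rested on 13 to 111 estimated fragments a library. The TKO_Ex Mb difference of Prrg2 was 1.56 ± 0.267 (log2, SE, adjusted p = 0.0783, limma), with a mean 3.42 times that of WT. Without TKO_Ex replicate 3 it was 1.57 ± 0.307 (adjusted p = 0.225, limma). It passed without WT replicate 3 (adjusted p = 0.0234) and with sex as a covariate (0.0375, limma, chosen after the data were seen). Nosip, which overlaps Prrg2 on the opposite strand, was at 21.6 to 31.1 FPKM in TKO_Ex Mb and 18.0 to 38.8 in WT Mb. The difference between TKO_Ex and DKO_Ex in Mb was 1.28 ± 0.249 (adjusted p = 0.185, limma).

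**Figure D5:**
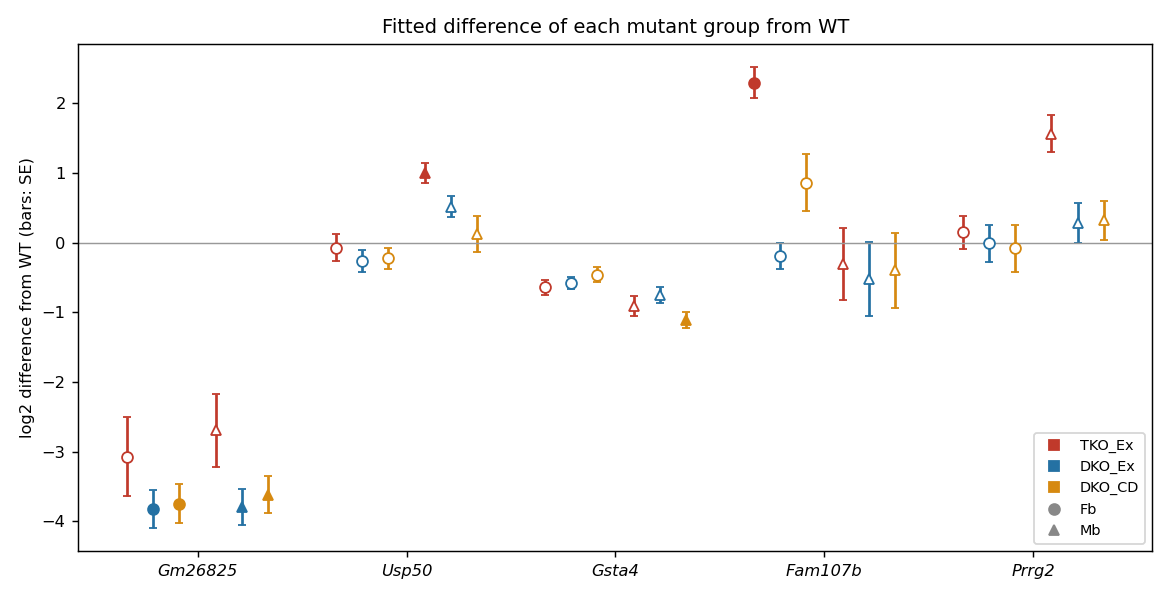
Fitted log2 difference of each mutant group from WT on the log2(FPKM + 1) scale (vertical, bars are SE) for the 5 genes, with Fb as circles and Mb as triangles, filled where the adjusted p was under 0.05. All 6 differences of Gm26825 and of Gsta4 are negative, while Usp50, Fam107b and Prrg2 each depart in TKO_Ex of 1 tissue.

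Of the 30 differences from WT, 7 passed the threshold. The whole-table share of genes that passed was 0.0898% in TKO_Ex Mb, 0.0903% in DKO_Ex Mb, 0.0375% in DKO_CD Mb, 0.0603% in TKO_Ex Fb, 0.0759% in DKO_Ex Fb and 0.0378% in DKO_CD Fb, and nothing is read from the members' count, as the same contrasts chose them. All mutant libraries were below every WT library for 0.0904% of genes in Fb and 0.0374% in Mb. No difference of effect between Mb and Fb passed in any of the 5 genes (0.0149% of genes passed in TKO_Ex, 0% in DKO_Ex and 0.00746% in DKO_CD), although in TKO_Ex it was 1.07 ± 0.252 for Usp50, -2.60 ± 0.604 for Fam107b and 1.41 ± 0.371 for Prrg2 (log2, SE, adjusted p = 0.483, 0.483 and 0.556, limma), with unadjusted p-values under 0.05 for each. A tissue-restricted effect is thus described by the levels and was not established by the interaction. This fit did not pair same-numbered Fb and Mb libraries, and with such pairing none of the 5 genes passed either. Between mutant groups, Fam107b in TKO_Ex against DKO_Ex Fb was the 1 difference that passed (0.0301% of genes), and none passed between DKO_CD and DKO_Ex (0.045% in Mb and 0.00753% in Fb), where Gm26825 was not tested because its mean was under 1 FPKM.

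The 5 genes were grouped as genes that track the mutant descent. Levels against WT chose them, so the same levels describe that choice and support nothing about descent. Gsta4 in all mutant libraries and Gm26825 in all but the pair labelled TKO_Ex replicate 3 lay apart from WT in both tissues and all 3 mutant groups. Usp50, Fam107b and Prrg2 did so in TKO_Ex of 1 tissue, and Usp50, Fam107b and Prrg2 had no r above 0.379 with any other of the 5 genes.

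Genes near the 5 genes did not pass against WT, and 1 passed for agreement. Of all genes 0.0375% to 0.0903% passed in a comparison with WT and 0.09% for agreement. A count of 0 among so few neighbours therefore says little about them. Within 1 megabase of each start 0 genes passed in any comparison with WT, of 7 tested around Gm26825, 21 to 23 around Usp50, 10 to 11 around Gsta4, 8 to 10 around Fam107b and 69 to 73 around Prrg2, and within 5 megabases the count was also 0. For agreement of same-numbered libraries the count was 0 within 1 megabase and 1 within 5 megabases, of 33 genes tested around Gm26825. That gene was Cyp51, a sterol demethylase of cholesterol synthesis, 1.7 megabases from Gm26825 at chr5:4081145-4104746, with an r of 0.940 (exact permutation p = 4.5e-05, adjusted p just under the threshold). It is named here after its value was seen, is 1 of the 12 genes that passed for agreement, and these calls were lost under most alternatives. Around the other 4 genes the count was 0. The nearest neighbour of Gm26825 by distance beyond Gm15459 was Steap1, a metalloreductase gene 45.2 kilobases away, at 0.424 to 1.2 FPKM in WT Mb and 1.62 to 4.22 in the Mb of all mutants without overlap, as 0.0973% of genes were, but at 1.45 to 3.97 in WT Fb and 0.815 to 3.79 in mutant Fb. Neighbours of the other 4 genes, Ick and Mto1, Usp8 and Trpm7, Gm45902 and Frmd4a, and Prr12 and Nosip, overlapped between WT and mutants in both tissues.

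The wider families of the 5 genes did not pass in any comparison with WT either. Only 0.0375% to 0.0903% of all genes passed in these comparisons, so a count of 0 in lists of this size says little about the families. Among 33 genes of glutathione conjugation and 4-hydroxynonenal removal, of which 23 to 25 were tested, 0 rose and 0 fell, with medians of -0.05 to 0.15 (log2) beside -0.01 to 0.04 for all genes. Among 41 ubiquitin-specific proteases found, of which 40 were tested, the count was 0 and the medians were -0.06 to 0.13. Among 16 genes of vitamin K-dependent carboxylation, of which 6 to 7 were tested, it was 0 with medians of -0.01 to 0.19. The paralogue of Fam107b, Fam107a, was at 0 to 3.38 FPKM and not tested. Between the WT tissues Gsto1, a glutathione transferase of the omega class, was lower in Mb by -0.64 ± 0.146 (adjusted p = 0.014, limma), and Usp11, a deubiquitinase, was higher by 0.54 ± 0.118 (adjusted p = 0.0113, limma). Each was the 1 gene of its list that passed, of 23 and 40 tested, where 8.26% of all genes passed.

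The genes most like the other members over the 32 libraries, as a description, were 1110038B12Rik (r = 0.717), Hspd1 (0.7) and Set (0.692) for Usp50 and Postn (0.644), Rpsa-ps4 (0.632) and Mov10 (0.618) for Fam107b, with Gm20463 (0.595) and Gm8113 (0.586) among those for Prrg2. Hspd1 encodes the mitochondrial chaperonin, Postn the matrix protein periostin and Mov10 an RNA helicase. The libraries of a tissue and group enter each r together, so that these values carry group and tissue differences as well as differences among embryos.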

How the data were processed

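Directional libraries were aligned by the authors with TopHat2 to GRCm38, and the deposited values are FPKM per gene from Cufflinks, which divides by gene length and by the fragments mapped in each library. Versions and the gene annotation are not given in the sources used here. The authors' read counts (HTSeq, tested with DESeq2) were not used here. FPKM of 65 repeated identifiers were summed, and 48218 of 48576 identifiers were found in GENCODE M21.

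Differences were tested with limma 3.58.1 (R 4.3.3) on log2(FPKM + 1), using a trended prior variance, over genes that averaged 1 FPKM or more in the fit, and p-values were adjusted by Benjamini-Hochberg with a threshold of 0.05. The main fits over both tissues took Fb and Mb libraries as unpaired. With same-numbered libraries as a block, Usp50 still passed between the WT tissues. Agreement of Fb and Mb was tested over all 13329 genes by exact permutation in Python 3.11.15 (NumPy 2.4.6, SciPy 1.17.1, pandas 2.3.3), and 112 further genes had no variation in 1 tissue. Both methods were tested on simulated data. Transcripts were compared with BLAST+ 2.17.0, with at least 100 matched bases. Figures were drawn with matplotlib 3.10.9. Depth was estimated from low values of 771 genes, 86.05% to 95.02% of them within 0.15 of a whole fragment.

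Libraries were grouped by the labels and column headings. The labels do not state that replicates are separate embryos, so p-values measure the spread between libraries, which may be technical. The genes named are the 5 genes, the targeted and sex-linked genes, the 3 genes most like each, the nearest tested neighbours, neighbours that pass and family genes that pass. A gene among those most like Prrg2 is not reported here. Others (Hspa8, Polr2l, Gm15459, Nosip and the genes beyond WT in both tissues) were chosen after their values were seen. The genes, gene lists and tests were chosen with earlier results of these data known. The alternatives were a pseudocount of 0.1, no filter, median-of-ratios scaling, grouping by record, the replicate block, leaving out each replicate, Spearman's rho, WT or mutant pairs alone and a window of 5 megabases. Sex as a covariate and re-pairing within sex were added after the data were seen.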

Additional observations from a re-analysis of the deposited data

Results flagged for a closer look

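In 20 groups of 4 or 6 libraries of a gene, 5 held a library farther from the others than Dixon's 95% limit, where chance gives about 1 in 20. Gm26825 was at 8.236 FPKM in TKO_Ex Fb replicate 3 and at 8.361 FPKM in TKO_Ex Mb replicate 3, each far above the other 3 TKO_Ex libraries of its tissue (0 to 0.464 FPKM). These libraries are the pair whose Cdh6 stood at the WT level.

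Fam107b was at 90.19 FPKM in WT Mb replicate 2, where the other 5 WT Mb libraries were at 12.6 to 15.6 FPKM. Gsta4 was at 98.05 FPKM in WT Fb replicate 2, the highest of its group, and Prrg2 at 7.071 FPKM in WT Mb replicate 3.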

How the results depend on the processing

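No fitted difference from WT of Gm26825 or Gsta4 changed sign under any alternative. Nor did those of Usp50 and Prrg2 in TKO_Ex Mb or of Fam107b in TKO_Ex Fb. Not every fitted difference was followed in this way, and that of Fam107b between the WT tissues rests on 1 library. Of the 7 differences from WT that passed in the 5 genes, 2 were kept with the replicate block (Gm26825 in DKO_Ex Fb and DKO_CD Fb), 6 to 7 under the other alternatives, with 0 to 2 gained, and 5 to 7 when a replicate was left out, with 0 to 2 gained. The numbers share only a label there: deviations of same-numbered Fb and Mb libraries over 12961 genes correlated at 0.0173 to 0.0867 in WT, 0.00181 to 0.0998 in TKO_Ex, 0.0708 to 0.12 in DKO_Ex and 0.00628 to 0.136 in DKO_CD, with 4 of 6, 3 of 4, 3 of 3 and 2 of 3 numbers best matched to themselves, and those of WT and mutant libraries at -0.0947 to 0.0538. With the block, the 1 Fam107b call between TKO_Ex and DKO_Ex also went to 0, as it did with no filter, median-of-ratios scaling and grouping by record, and it was 0 to 1 when a replicate was left out (1 without TKO_Ex replicate 3). The 12 genes called for agreement were 0 with Spearman's rho, in the 6 WT pairs, in the 10 mutant pairs, with no filter and within sex, and 0 to 2 when a pair was left out. The r of Gm26825 was 0.762 to 0.972 when a pair was left out and 0.763 to 0.974 under the other alternatives, with adjusted p-values of 0.265 to 0.892, and with a pseudocount of 0.1 it was 0.868. The 0.974 was that of the 10 mutant pairs and rests on TKO_Ex replicate 3. The r of Usp50 turned negative with Spearman's rho (-0.00882), in the WT pairs (-0.101) and within sex (-0.0861), and ran from -0.0791 to 0.201 when a pair was left out. That of Gsta4 was -0.0899 without the 2 farthest pairs and -0.0456 to 0.485 when a pair was left out, and that of Prrg2 was -0.215 to 0.0181. The count of neighbours that passed, over comparisons with WT and agreement, was 0 within 1 megabase and 1 within 5. For Usp50 in TKO_Ex Mb the call was also lost with no filter (adjusted p = 0.0691), with the block (0.491) and with sex as a covariate (0.0517). Gsta4 in DKO_CD Mb was lost with the block (0.285) and without DKO_CD replicate 2 or 3 (0.0514 to 0.0584), and Fam107b in TKO_Ex Fb with the block (0.446). Grouping by record exchanges the names of the DKO groups against WT. The same Gsta4 call then stood under DKO_Ex Mb, and the difference named DKO_CD Mb was at 0.0693. Apart from the left-out libraries and this exchange of names, the cause of these changes was not tested. At 1.96 to 3.24 M fragments a library, the mutant values of Gm26825 rest on a median of 1 fragment.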
